A study of Mus musculus with 2 samples.

Results

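The genes examined were 10 that encode core and accessory subunits of Polycomb repressive complex 2 (PRC2): Ezh1, Ezh2, Eed, Suz12, Jarid2, Aebp2, Mtf2, Phf19, Rbbp4 and Rbbp7. They were chosen by name, as known core and accessory genes of the complex, and all 10 were found among the 32285 genes counted in both libraries. Other partners of the complex were read separately. The cells were lineage-depleted progenitors from the fetal liver of CD1 embryos at E14.5, sorted as LSK (lineage-negative, Sca1-positive and Kit-positive) and profiled by droplet single-cell RNA sequencing at the 3′ end of transcripts. One group was IκBα WT, a pool of 2 embryos, and the other was IκBα KO, a pool of 3 embryos of a germline Nfkbia knockout line, in which every cell of the embryo carries the deletion. With 1 library per genotype there were no replicates, so no test was run and no p-value is given. Embryo, pool, library and genotype cannot be told apart.

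PRC2 places methyl groups on lysine 27 of histone H3, a mark found at silenced developmental genes. Ezh2 or its paralog Ezh1 supplies the methyltransferase activity, Eed binds the finished mark and stimulates the enzyme, Suz12 holds the complex together, and Rbbp4 and Rbbp7 are histone-binding proteins shared with other chromatin complexes. Mtf2 and Phf19 are Polycomb-like proteins of the form called PRC2.1, whereas Jarid2 and Aebp2 belong to the form called PRC2.2. In blood formation Ezh2 is known as the enzyme of dividing progenitors and Ezh1 as that of more quiescent cells.

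The promoters of the catalytic subunits and of a pair of partners are shown because E2F proteins drive many genes of dividing cells, and the levels below were read against cell division. RefSeq promoter windows (build GRCm38.p6, 300 bases, from 250 before to 50 after a transcription start) were held for 10 of 10 members, 14 windows in all. They were searched on both strands for 4 spellings of the E2F motif, TTTCCCGC, TTTCGCGC, TTTGCCGC and TTTGGCGC, whose matches here do not overlap those of the other motifs below. A match was present for 3 of the 10 members, Ezh2, Suz12 and Phf19, against 2.61% of the 27025 genes and 2.26% of the 32851 windows in the table. The stretches from 250 bases before to 20 bases after the start are printed below 5′ to 3′ on the gene's strand, in lower case with the E2F match in capitals, for Ezh2 (chr6:47595011-47595280, minus strand), Suz12 (chr11:79992856-79993125, plus strand), Phf19 (chr2:34913957-34914226, minus strand) and Ezh1 (chr11:101226444-101226713, minus strand).
Ezh2: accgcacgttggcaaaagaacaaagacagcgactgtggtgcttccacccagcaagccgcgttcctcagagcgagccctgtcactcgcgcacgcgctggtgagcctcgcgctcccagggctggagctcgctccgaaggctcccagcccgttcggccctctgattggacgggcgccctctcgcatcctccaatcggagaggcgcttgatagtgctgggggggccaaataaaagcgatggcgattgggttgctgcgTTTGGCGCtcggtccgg
Suz12: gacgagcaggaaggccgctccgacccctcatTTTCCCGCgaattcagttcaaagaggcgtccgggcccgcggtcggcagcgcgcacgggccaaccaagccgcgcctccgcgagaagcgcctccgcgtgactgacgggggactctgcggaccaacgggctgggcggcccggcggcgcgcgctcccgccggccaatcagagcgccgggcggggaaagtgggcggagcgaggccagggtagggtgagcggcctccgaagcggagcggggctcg
Phf19: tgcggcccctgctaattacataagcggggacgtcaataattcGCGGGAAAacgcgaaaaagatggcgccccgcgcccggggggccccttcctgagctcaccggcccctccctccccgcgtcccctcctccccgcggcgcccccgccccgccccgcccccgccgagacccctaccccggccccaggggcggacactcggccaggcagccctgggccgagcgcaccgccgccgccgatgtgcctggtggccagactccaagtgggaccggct
Ezh1: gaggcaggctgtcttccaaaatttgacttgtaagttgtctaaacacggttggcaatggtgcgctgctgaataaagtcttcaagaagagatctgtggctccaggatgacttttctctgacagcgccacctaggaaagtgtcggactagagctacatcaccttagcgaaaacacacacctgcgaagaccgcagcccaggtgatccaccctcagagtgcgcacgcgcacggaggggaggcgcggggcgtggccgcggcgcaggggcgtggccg
The match of Ezh2 was TTTGGCGC and began at the base numbered 4 of the transcript. In Suz12 it was TTTCCCGC, beginning 219 bases before the start, and in Phf19 the same letters lay on the opposite strand, 208 bases before the start. The window of Ezh1 held none of the 4 spellings. The CHR motif of cell cycle genes, searched as TTTGAA or TTCGAA, was matched in 4 members, Eed, Suz12, Aebp2 and Mtf2, against 21.7% of all genes. The CCAAT box, searched as CCAAT, was matched in 8 members, all but Ezh1 and Phf19, against 41.1% of all genes. These matches are descriptions of the letters and not evidence of binding.

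Each library was checked before levels were compared. After filtering, 3458 of 3840 WT barcodes and 4417 of 4928 KO barcodes were kept, with medians of 28065 and 19560 UMIs (unique molecular identifiers, each marking 1 captured RNA molecule). Nfkbia, the targeted gene, had 1478 UMIs in WT and 7 in KO. Cells with Y-linked UMIs and without Xist were 0.116% of the WT library and 17.4% of the KO library, and 7 barcodes were shared by the libraries. The sample titles name LT-HSCs (long-term haematopoietic stem cells) whereas the cell type entry is LSK, and 42.6% of the 3276 WT cells and 50.6% of the 3946 KO cells put in a class or left ungated passed the erythroid marker gate. In those erythroid-like cells the Sca1 gene Ly6a was at 0.996 and 0.835 CPM (counts per 1000000 UMIs), against 23.5 and 27.7 in LT-HSC-like cells.

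Cells were assigned to classes by a gate on 8 marker genes per class, none of them a PRC2 gene, after each cell had been thinned to 8500 UMIs. LT-HSC-like cells (Hlf, Mecom, Procr and other stem cell markers) numbered 477 in WT and 385 in KO. Of these, 201 and 205 stood at the minimum number of markers, so the class is a range rather than a type. Their 8 stem cell markers summed to 509 CPM in WT and 430 in KO, with medians of 3 and 2 markers per cell. The 8 neutrophil markers summed to 400 and 373 CPM in them, against 12761.5 and 13956.7 in the neutrophil-primed-like class. The part of this difference in the KO and WT levels was not tested. Erythroid-like cells numbered 1395 and 1997, and 946 and 911 cells that met no gate are called ungated. The remaining 7 classes held 28 to 198 cells per library. Levels are given as CPM, for which the UMIs of a gene in all cells of a class were added up and divided by the total of that class, times 1000000. They carry 95% intervals that cover counting error only. As a UMI counts 1 transcript end, a level does not scale with transcript length, but the capture of each gene's end can differ, so levels of different genes are set side by side only as captured molecules.

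All 10 members were detected in LT-HSC-like cells, and their levels spanned a wide range. Ezh2 stood at 182 (173 to 191) CPM in WT and 194 (183 to 206) in KO, from 1608 and 1150 UMIs. Ezh1 stood at 7.13 (5.48 to 9.12) and 6.25 (4.4 to 8.61), from only 63 and 37 UMIs. On cells thinned to equal depth, Ezh2 had at least 1 UMI in 71.3% (67 to 75.3%) of LT-HSC-like cells in WT and 78.2% (73.7 to 82.2%) in KO. For Ezh1 the shares were 6.71% (4.63 to 9.34%) and 6.23% (4.03 to 9.13%), so a single cell usually gave no Ezh1 molecule at this depth whether or not it transcribed the gene. In erythroid-like cells the Ezh1 shares were 3.08% (2.24 to 4.13%) and 2.4% (1.78 to 3.17%). Free RNA can also give UMIs, and no class was known to lack either gene, so no background share could be set.

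Ezh2, the catalytic subunit of dividing cells, was highest in megakaryocyte-like cells in WT (243 (218 to 269.8)) and in lymphoid-primed-like cells in KO (229.9 (213 to 248)). It was lowest in hepatocyte-like cells, at 57 in WT and 76.2 in KO. In WT the descending order ran from megakaryocyte-like through lymphoid-primed-like (210.4), monocyte/dendritic-like (188), LT-HSC-like and erythroid-like (173) to ungated cells (162). Neighbours in this order overlapped in their intervals down to erythroid-like cells. Neutrophil-primed-like cells stood lower, at 131 in WT and 137 in KO, and in WT their interval overlapped those of macrophage-like (127) and endothelial-like cells (119.8).

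Ezh1, the second catalytic subunit, ran in another order. Its lowest level in both libraries was in erythroid-like cells, at 3.53 (3.04 to 4.09) in WT and 2.99 (2.54 to 3.5) in KO. Its highest was in endothelial-like cells, at 9.15 (4.57 to 16.4) and 12.4 (6.8 to 20.9), which rested on 11 and 14 UMIs. The LT-HSC-like interval lay above the erythroid-like one in both libraries. Apart from ungated cells (5.37 (4.56 to 6.28) and 5.1 (4.16 to 6.19)) the other classes held 6 to 31 Ezh1 UMIs each, and their intervals overlapped with that of LT-HSC-like cells.

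**Figure D1:**
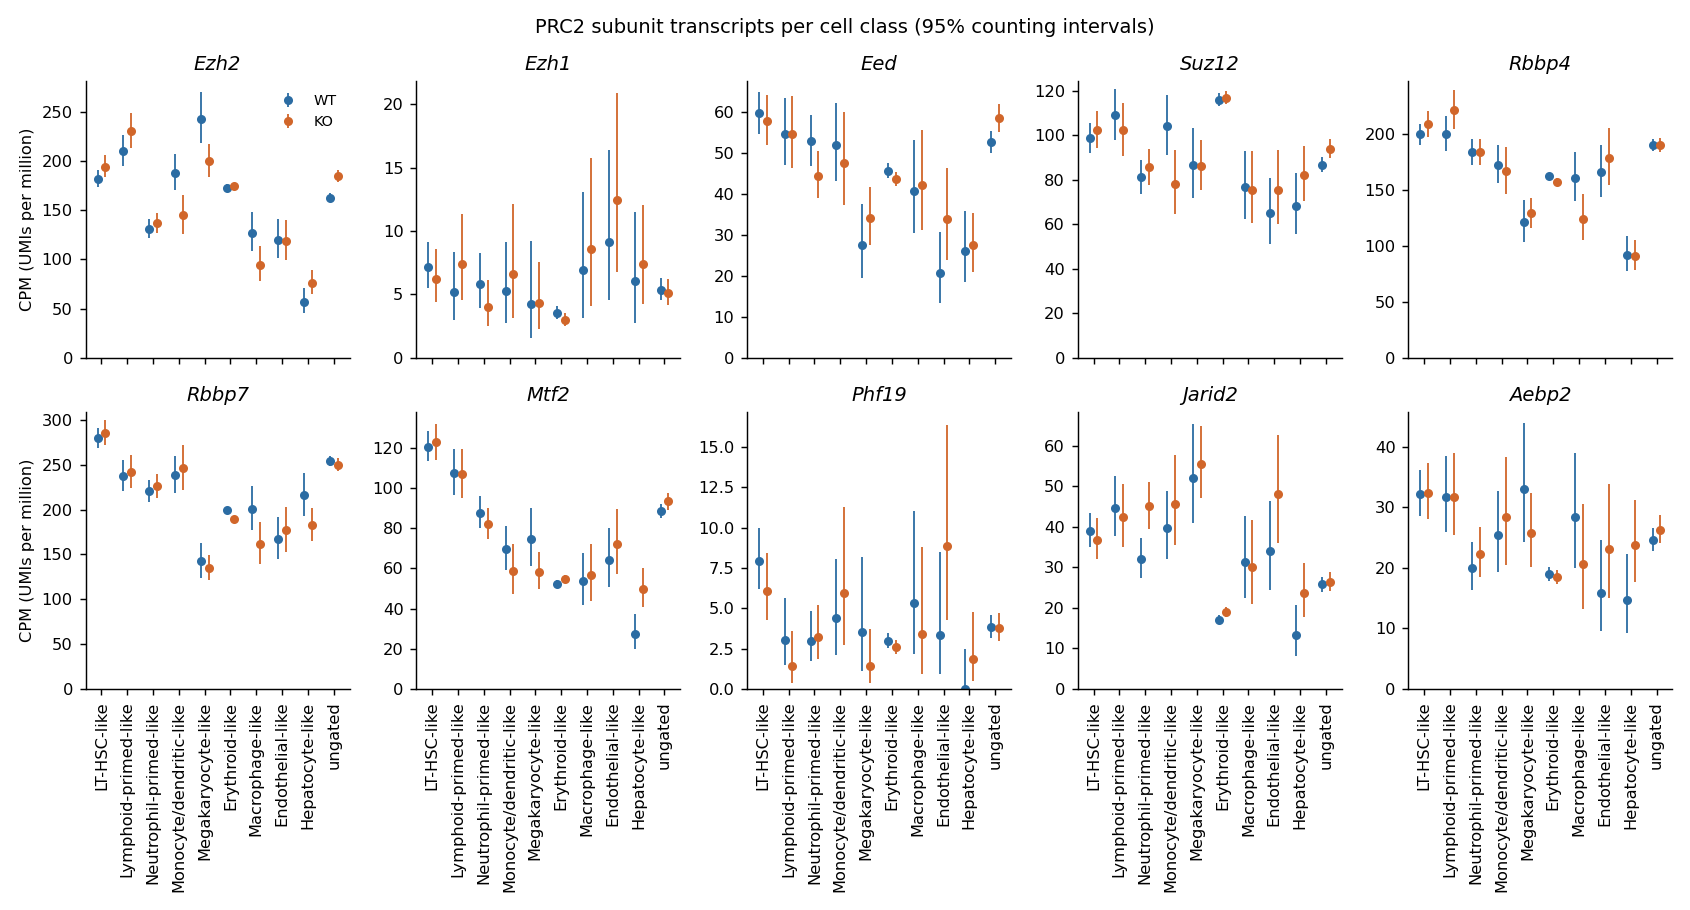
Level of each PRC2 subunit (CPM, the UMIs per 1000000 on the vertical axis, which starts at 0) in each cell class, with WT in blue and KO in orange and bars for 95% counting intervals. Mtf2 stands highest in LT-HSC-like cells (121 and 123) and Suz12 in erythroid-like cells (116 and 117), while the points of Ezh1 and Phf19 stay below 13.

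Suz12, the scaffold, had the narrowest range over the classes, 1.79-fold in WT and 1.55-fold in KO. It was highest in erythroid-like cells, at 116 in WT and 117 in KO, and its lowest class stood at 64.9 (endothelial-like, WT) and 75.5 (macrophage-like, KO). Eed was at 59.6 and 57.8 in LT-HSC-like cells, against 27.4 and 34 in megakaryocyte-like cells, the class that led for Ezh2 in WT. In WT megakaryocyte-like cells, a class of 30 cells, Ezh2 was thus at its highest and Eed among its 3 lowest levels.

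Rbbp7, the X-linked histone-binding subunit, gave the most UMIs of the 10 members. It was at 279.6 in WT and 286 in KO in LT-HSC-like cells, its highest class in both, and lowest in megakaryocyte-like cells at 142 and 135. Its paralog Rbbp4 was at 199.6 and 208 in LT-HSC-like cells and lowest in hepatocyte-like cells, at 91.9 and 91.1. Hepatocyte-like cells were low for Ezh2 and Rbbp4 but not for Rbbp7, at 216 and 182.

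Of the PRC2.1 subunits, Mtf2 was captured far more often than Phf19. Mtf2 had its highest level in LT-HSC-like cells in both libraries, 121 (113 to 128) in WT and 123 (114 to 132) in KO. Lymphoid-primed-like cells followed at 107 and 107, with overlapping intervals, then ungated cells at 88.5 and 93.4 and neutrophil-primed-like cells at 87.6 and 82. Phf19 was at 7.92 (6.17 to 10.0) and 6.08 (4.26 to 8.42) in LT-HSC-like cells. In erythroid-like cells it was at 2.97 and 2.58, and no Phf19 UMI was counted in the 28 WT hepatocyte-like cells, whose interval reached 2.48 CPM.

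The PRC2.2 subunits Jarid2 and Aebp2 were intermediate in number. Jarid2 was highest in megakaryocyte-like cells, at 52.1 in WT and 55.4 in KO, and was at 39 and 36.8 in LT-HSC-like cells. Erythroid-like cells had 17.1 and 19. Aebp2 was at 32.1 and 32.4 in LT-HSC-like cells and at 19 and 18.5 in erythroid-like cells. In the smallest classes hepatocyte RNA moved with library. The 8 hepatocyte markers summed to 3843 CPM in megakaryocyte-like cells of WT and 1410 in KO, and to 1266 and 169.7 in endothelial-like cells. Their part in those values was not tested.

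LT-HSC-like cells were next set against erythroid-like cells, the largest class, within each library. Mtf2, Jarid2, Aebp2, Phf19 and Ezh1 stood 0.76 to 1.42 log2 units higher in LT-HSC-like cells over both libraries, while Ezh2 was nearly level and Suz12 lay lower. The log2 ratio of Mtf2 was 1.21 (1.11 to 1.32) in WT and 1.17 (1.05 to 1.29) in KO, and that of Jarid2 was 1.19 (1.01 to 1.37) and 0.96 (0.74 to 1.17). Phf19 gave 1.42 (0.99 to 1.83) and 1.24 (0.66 to 1.78), Ezh1 1.01 (0.57 to 1.43) and 1.06 (0.50 to 1.59), and Aebp2 0.76 and 0.81. For Ezh2 the ratio was 0.075 (-0.0026 to 0.15) and 0.16 (0.067 to 0.25), and for Suz12 it was -0.23 (-0.34 to -0.13) and -0.19 (-0.31 to -0.07). The other core subunits lay between these, Eed at 0.39 and 0.41, Rbbp4 at 0.30 and 0.41 and Rbbp7 at 0.49 and 0.59. Against lymphoid-primed-like cells in WT, the ratio was 0.17 (-0.0088 to 0.34) for Mtf2, -0.19 (-0.47 to 0.098) for Jarid2 and 0.017 (-0.31 to 0.36) for Aebp2. Ezh1 was at 0.46 (-0.33 to 1.32) there, and Phf19 at 1.38 (0.41 to 2.50) from 70 and 10 UMIs. In KO, Jarid2 was at 42.3 CPM in lymphoid-primed-like and 36.8 in LT-HSC-like cells. Against neutrophil-primed-like cells in WT the ratios of Mtf2, Jarid2 and Aebp2 were 0.46 (0.30 to 0.62), 0.29 (0.017 to 0.56) and 0.68 (0.36 to 1.02). Against ungated cells in WT they were 0.45, 0.60 and 0.38, and against megakaryocyte-like cells 0.69, -0.42 and -0.042. The higher levels of these genes in LT-HSC-like cells thus depended on the class compared. Against lymphoid-primed-like cells their WT intervals included 0.

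A gene was counted as higher or lower where its log2 ratio was at least 0.25 in size in both libraries, among genes with at least 100 UMIs in the cells compared. By that count 8 of the 10 members were higher and 0 lower, beside 46.7% of 9686 genes higher and 19.6% lower. With classes from clusters Rbbp4 in WT was at 0.12, under 0.25, while Eed was at 1.0 and 0.90, Aebp2 at 1.48 and 1.26 and Ezh1 at 1.79 and 1.6 in WT and KO. Many genes were therefore higher in LT-HSC-like cells on this scale, and the median of all genes was 0.28 in WT and 0.27 in KO. Haemoglobin genes took 7.22% and 8.996% of erythroid-like UMIs against 0.459% and 0.433% of LT-HSC-like UMIs. With the median of all genes taken off, 5 members were higher (Ezh1, Jarid2, Aebp2, Mtf2 and Phf19) and 1 was lower (Suz12), beside 33.8% of genes higher and 32.6% lower. On that scale Mtf2 was at 0.93 and 0.90 and Suz12 at -0.52 and -0.46. Ezh2 changed direction, to -0.21 and -0.11, so no direction is given for it. The 4 PRC2.1 and PRC2.2 accessory genes among the 10 members were thus counted as higher than in erythroid-like cells on both scales. Of the 6 core genes Ezh1 alone was.

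Because the classes differ in cell division, the same ratios were taken within phases, a comparison added after the data had been seen. Mtf2 was higher in LT-HSC-like cells in each phase, at 1.39 and 1.32 among cells in phase S or G2M, and at 0.91 and 0.79 among G1 cells. Suz12 in G1 was at -0.34 (-0.54 to -0.16) and -0.38 (-0.64 to -0.14). Ezh2 was at 0.22 and 0.19 among cycling cells but at -0.20 (-0.34 to -0.058) and 0.077 (-0.10 to 0.25) among G1 cells, where the WT interval lay below 0 and the KO interval included it. Eed in G1 was at 0.054 in WT and 0.35 in KO. Medians of all genes within phases were 0.31 and 0.32 for cycling and 0.069 and 0.021 for G1 cells.

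The balance of the catalytic paralogs was read as Ezh2 UMIs per Ezh1 UMI in the same cells, a quantity that needs no total. It was 25.5 in WT and 31.1 in KO in LT-HSC-like cells, and 48.9 and 58.3 in erythroid-like cells. The log2 of Ezh1 over Ezh2 was thus 0.94 higher in LT-HSC-like cells in WT (0.52 to 1.36, from the 4 counts) and 0.91 higher in KO (0.38 to 1.43). The lowest ratios were 9.44 and 10.2 in hepatocyte-like cells and 13.1 and 9.5 in endothelial-like cells. Lymphoid-primed-like cells were at 40.5 and 31, neutrophil-primed-like cells at 22.5 and 34.1, and ungated cells at 30.2 and 36.1. Hepatocyte-like, endothelial-like and macrophage-like cells (18.4 and 11) were therefore at the Ezh1 end, erythroid-like and megakaryocyte-like cells (57.5 and 45.9) were at the Ezh2 end, and LT-HSC-like cells lay between them. Megakaryocyte-like cells rested on 6 and 12 Ezh1 UMIs, and their place in the order is not settled by the counts. Hepatocyte-like, endothelial-like and macrophage-like cells rested on 9 to 16 Ezh1 UMIs each. Their WT intervals overlapped that of LT-HSC-like cells. In KO the macrophage-like interval overlapped it, whereas the hepatocyte-like and endothelial-like ones did not.

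**Figure D2:**
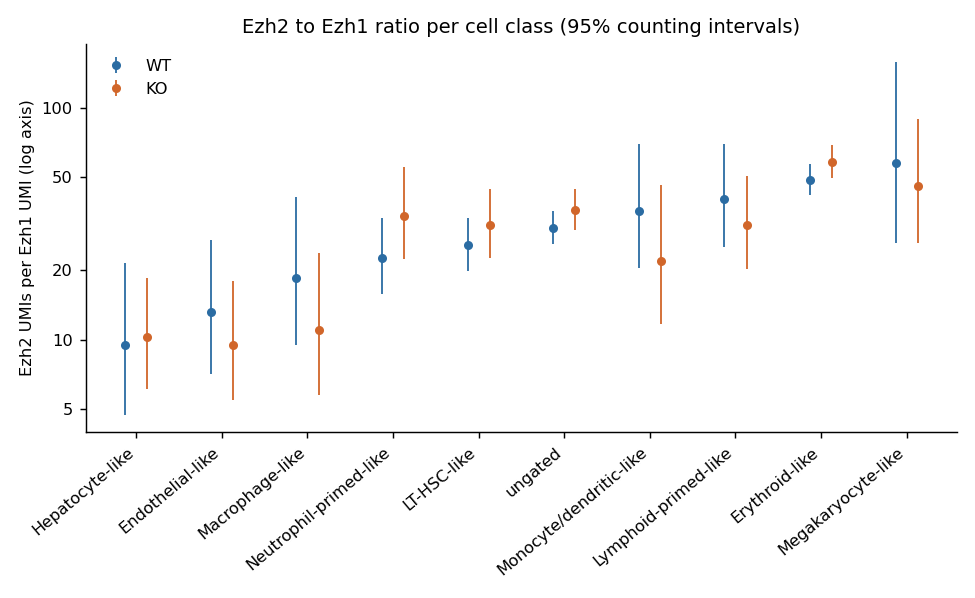
Ezh2 UMIs per Ezh1 UMI (log axis) in each cell class, ordered by the WT value, with WT in blue, KO in orange and bars for 95% counting intervals. Erythroid-like cells (48.9 and 58.3) lie above LT-HSC-like cells (25.5 and 31.1), and hepatocyte-like cells are near 10.

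Cycling and G1 cells were compared within each class and library, which share embryos and preparation but not depth. In LT-HSC-like cells the median was 12842 UMIs in G1, 17748 in S and 20529.5 in G2M in WT, and 11809, 12398.5 and 15392 in KO. Erythroid-like cells were deepest in G1, at 40257 UMIs against 25683 in S and 32706 in G2M in WT, and at 27762 against 17326 and 23812 in KO. The part of depth in the ratios below was not tested, although phases were scored on cells thinned to 8500 UMIs. Phases were scored from 43 S-phase and 52 G2M genes, which include no member, and cells in phase S or G2M are called cycling. They made up 53.2% of LT-HSC-like cells in WT and 68.8% in KO. As a gauge of the split, the log2 ratio of cycling over G1 cells was 2.29 and 1.54 for Mki67 and 2.08 and 1.36 for Top2a, both of them proliferation genes. Cdkn1c, an inhibitor of division in stem cells, was at -0.57 in WT and 0.08 in KO, and Cdk6, which promotes entry into the cycle, was at 0.30 and 0.26. The Mki67 and Top2a ratios were therefore smaller in the KO library.

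In LT-HSC-like cells Ezh2 went from 140.4 CPM in G1 to 209 in cycling cells of WT, a log2 ratio of 0.58 (0.42 to 0.73). In KO it went from 172 to 204, a ratio of 0.24 (0.053 to 0.44). Suz12 went from 75.5 to 114 in WT (0.59 (0.38 to 0.81)) and from 80.1 to 112 in KO (0.48 (0.21 to 0.76)). Mtf2 was also higher in cycling cells, at 0.37 (0.19 to 0.56) and 0.33 (0.091 to 0.58). Within S phase alone Ezh2 stood at 229 and 220.3, and in G2M at 199 and 196. For Suz12 the S-phase levels were 125 and 139, and those in G2M were 108 and 99.4, so that both genes stood highest in S phase in both libraries, although the intervals of S and G2M overlapped for Ezh2 in both libraries and for Suz12 in WT.

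Ezh1 in LT-HSC-like cells was at 9.15 in G1 and 5.8 in cycling cells of WT, a ratio of -0.66 (-1.42 to 0.10) from 32 and 31 UMIs. In KO it was at 6.77 and 6.03, a ratio of -0.17 (-1.21 to 0.96) from 12 and 25 UMIs. Both intervals included 0, so a difference of Ezh1 with cycling was not detectable at this depth. Ezh2 per Ezh1 UMI went from 15.3 in G1 to 36 in cycling cells of WT and from 25.4 to 33.8 in KO. Of the 8 members with enough UMIs (Ezh1 and Phf19 fell short), 2 were higher in cycling cells in both libraries (Suz12 and Mtf2) and 0 lower, beside 10.9% of 5913 genes higher and 3.45% lower. The counts of members were the same with the median of all genes taken off, beside 9.74% and 4.48%. Ezh2 is not among the 2 because its KO value fell just under 0.25. That value was 0.51 (0.23 to 0.80) with classes from clusters and 0.57 (0.25 to 0.89) with 1 marker more in the gate, both past 0.25. Over all alternatives Ezh2 in KO ranged from 0.18 to 0.57, on both sides of 0.25. Mtf2 ranged from 0.23 to 0.53 in WT and from 0.18 to 0.44 in KO, so its place among the 2 also depended on the processing. Suz12 stayed past 0.25, with lowest values of 0.39 in WT and 0.37 in KO.

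**Figure D3:**
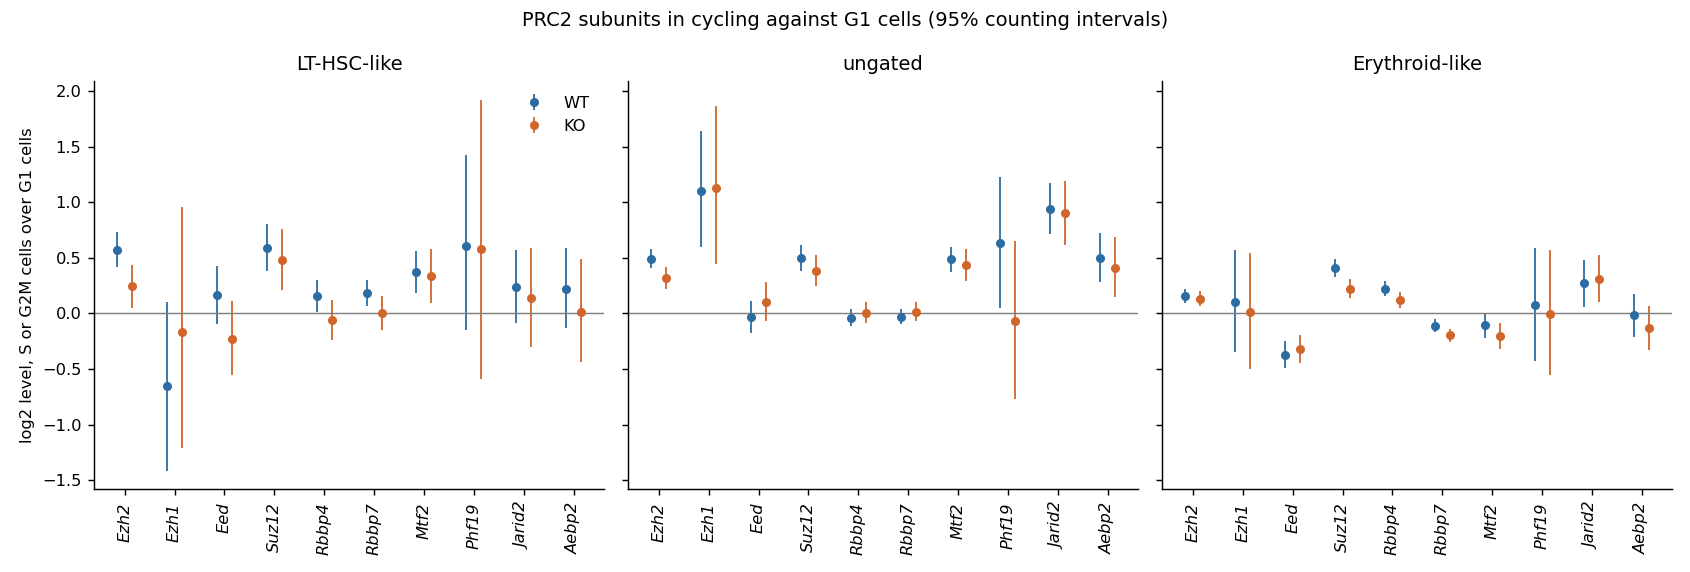
Log2 ratio of cycling (S or G2M) over G1 cells for each subunit in LT-HSC-like, ungated and erythroid-like cells, with WT in blue, KO in orange and bars for 95% counting intervals. Suz12 lies above 0 in all 3 panels, and Ezh1 is near 1.11 in ungated cells but below 0 with wide bars in LT-HSC-like cells.

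The ungated cells, in which no lineage gate was met, gave a different picture for Ezh1. It was at 3.32 CPM in G1 and 7.16 in cycling cells of WT, and at 2.96 and 6.47 in KO. The ratios were 1.11 (0.59 to 1.64) and 1.13 (0.44 to 1.87), with both intervals above 0. Jarid2 behaved similarly, at 0.94 and 0.90, and was followed by Ezh2 (0.49 and 0.32), Suz12 (0.50 and 0.38), Aebp2 (0.50 and 0.41) and Mtf2 (0.49 and 0.43). Eed was at -0.033 and 0.11, Rbbp4 at -0.036 and 0.0068 and Rbbp7 at -0.031 and 0.017. Of 9 members with enough UMIs 6 were higher and 0 lower, beside 27.2% of 8537 genes higher and 4.87% lower. The medians of all genes were 0.15 and 0.091, and with them taken off 5 were higher, beside 18.0% of genes, and 0 lower, beside 12.0%. In these cells Ezh2 per Ezh1 UMI was lower in cycling cells, 26.2 in WT and 30.9 in KO, than in G1 cells, 40.2 and 54.1. The ungated cells mix stages, and which of them take part in each phase was not tested.

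Erythroid-like cells differed again. Suz12 was higher in cycling cells, at 0.41 (0.32 to 0.49) in WT and 0.22 (0.14 to 0.31) in KO, and Ezh2 was at 0.16 and 0.13. Eed was lower, at -0.37 (-0.49 to -0.25) and -0.32 (-0.45 to -0.19), with levels of 53.4 and 50.6 in G1 and 41.3 and 40.6 in cycling cells. Ezh1 was level, at 0.11 and 0.011, from 181 and 154 UMIs. Of the 10 members 1 was higher in both libraries (Jarid2, at 0.27 and 0.31) and 1 lower (Eed), beside 11.7% of 9036 genes higher and 34.7% lower. The median of all genes was -0.16 and -0.19. With it taken off 4 members were higher (Ezh2, Suz12, Jarid2 and Rbbp4), beside 20.9% of genes, and 0 lower, beside 17.1%, so Eed was not counted as lower on that scale.

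A finer reading divided the cells of each class, both libraries together, into 4 bins of equal size by their UMIs from the phase genes at equal depth. From the lowest to the highest bin, Ezh2 in WT LT-HSC-like cells was at 120.2, 178, 212 and 209 CPM, and in KO at 161, 183, 190.1 and 219.6. Ezh1 was at 10.7, 6.73, 5.85 and 5.7 in WT and at 6.72, 5.36, 4.85 and 8.38 in KO. Ezh2 was lowest in the least cycling bin in both libraries, whereas Ezh1 was lower in each successive bin in WT and highest in the last bin in KO. The Ezh1 intervals of all 4 bins overlapped in each library.

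In ungated cells both genes were higher in each successive bin of both libraries. Ezh2 was at 115, 158, 172 and 202 in WT and 135, 165, 191 and 215 in KO. Ezh1 was at 2.7, 4.78, 5.48 and 8.44 in WT and 3.44, 3.74, 4.52 and 7.65 in KO. Erythroid-like cells gave Ezh2 levels of 136, 181, 194 and 182 in WT and 137, 168, 193 and 201 in KO, while Ezh1 stayed between 2.6 and 3.99. Suz12 was higher in each successive bin in all 3 classes and both libraries, going from 73.7 to 150.2 in WT erythroid-like cells and from 63.7 to 127 in WT LT-HSC-like cells.

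**Figure D4:**
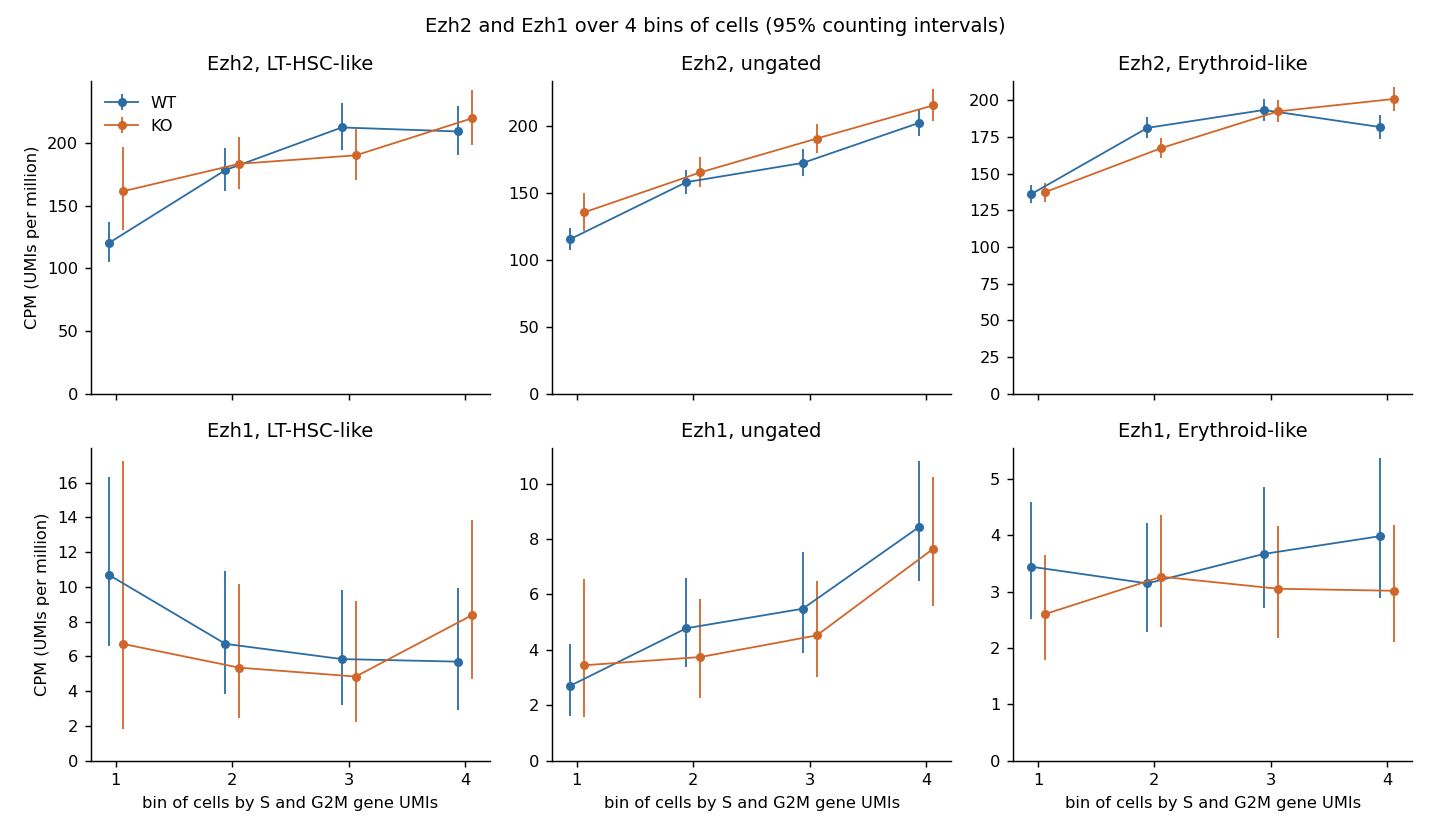
Ezh2 (upper row) and Ezh1 (lower row) in CPM over 4 bins of the cells, ordered by UMIs of the S and G2M genes, with WT in blue, KO in orange and bars for 95% counting intervals. Ezh2 is lowest in the first bin of every panel, and Ezh1 goes from 2.7 to 8.44 in WT ungated cells but is flat in erythroid-like cells.

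The comparison of KO with WT asked whether loss of IκBα came with altered amounts of PRC2 transcripts. In LT-HSC-like cells the 10 members were close to level. The log2 KO/WT ratio was 0.094 (-0.016 to 0.20) for Ezh2, 0.053 (-0.10 to 0.20) for Suz12, -0.046 (-0.25 to 0.15) for Eed and 0.026 (-0.11 to 0.16) for Mtf2. Jarid2 gave -0.084 (-0.34 to 0.16), Aebp2 0.013 (-0.26 to 0.28), Rbbp4 0.062 (-0.044 to 0.17) and Rbbp7 0.031 (-0.059 to 0.12). The intervals of the most captured members, Ezh2, Rbbp4 and Rbbp7, stayed under 0.25 in size, but they do not include the error between embryos. Ezh1 and Phf19 were imprecise, at -0.19 (-0.82 to 0.42) and -0.38 (-1.0 to 0.22). Of the 10 members 0 were higher by 0.25 and 1 was lower, Phf19, whose interval included 0. This stands beside 21.1% of 8489 genes past that size in either direction. The median of the members was 0.019 and that of all genes 0.0069.

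The other classes with at least 100 cells per library gave similar counts. In lymphoid-primed-like cells 0 of 8 members with enough UMIs passed a ratio of 0.25, beside 23.1% of genes. In erythroid-like cells it was 0 of 10, beside 13.5%, with Ezh2 at 0.013 (-0.03 to 0.055) and Suz12 at 0.011 (-0.041 to 0.063). In ungated cells it was 0 of 10, beside 13.7%, although Ezh2 was at 162 in WT and 184 in KO, a ratio of 0.18 (0.12 to 0.25). In neutrophil-primed-like cells 1 of 8 passed, beside 18.6%. This was Jarid2, at 32 (27.4 to 37.2) in WT and 45 (39.4 to 51.1) in KO, a ratio of 0.49 (0.20 to 0.78). In the 5 classes of 28 to 72 cells Ezh2 pointed both ways, at -0.38 (-0.62 to -0.14) in monocyte/dendritic-like, -0.28 (-0.48 to -0.084) in megakaryocyte-like, -0.43 (-0.79 to -0.073) in macrophage-like, -0.02 (-0.37 to 0.33) in endothelial-like and 0.42 (0.032 to 0.81) in hepatocyte-like cells. Genes past 0.25 there were 745 higher and 532 lower of 4446 in monocyte/dendritic-like and 714 and 669 of 4783 in megakaryocyte-like cells. In macrophage-like cells they were 823 and 646 of 3360, in endothelial-like 651 and 428 of 3412, and in hepatocyte-like 787 and 405 of 4059. In the same order, members higher and lower were 0 and 2 of 8, 1 and 3 of 8 and 0 and 3 of 6. For endothelial-like and hepatocyte-like cells they were 0 and 0 of 5 and 3 and 0 of 5.

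As LT-HSC-like cells of the KO library held a larger share of cycling cells, KO and WT were also compared within phases, again after the data had been seen. In G1 cells of the LT-HSC-like class Ezh2 was at 140.4 in WT and 172 in KO, a ratio of 0.29 (0.083 to 0.50), where 34.4% of 5516 genes passed 0.25 in either direction. In cycling cells it was at 209 and 204, a ratio of -0.038 (-0.17 to 0.092), beside 19.5%. Ungated cells gave 0.26 (0.16 to 0.37) in G1, beside 20.6%, and 0.09 (0.012 to 0.17) in cycling cells, beside 14.7%. Erythroid-like cells gave 0.02 in G1 and -0.0016 in cycling cells. In G1 cells of the lymphoid-primed-like class the ratio was 0.12 (-0.23 to 0.48), and of the neutrophil-primed-like class 0.15 (-0.078 to 0.38). The G1 ratio of Ezh2 thus passed 0.25 in LT-HSC-like and ungated cells of these 5 classes as gated here, and no difference between classes was tested. With 1 marker more in the gate the G1 ratio in LT-HSC-like cells was 0.11 (-0.22 to 0.44), under 0.25, and with classes from clusters it was 0.25 (-0.064 to 0.56). Top2a in G1 cells was higher in KO than in WT in all 5 of the large classes, at 268 against 157 CPM in LT-HSC-like, 275 against 227 in ungated, 267 against 235 in erythroid-like, 348 against 249.3 in lymphoid-primed-like and 286 against 248.97 in neutrophil-primed-like cells. The part of residual cycling in the Ezh2 difference was not tested.

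**Figure D5:**
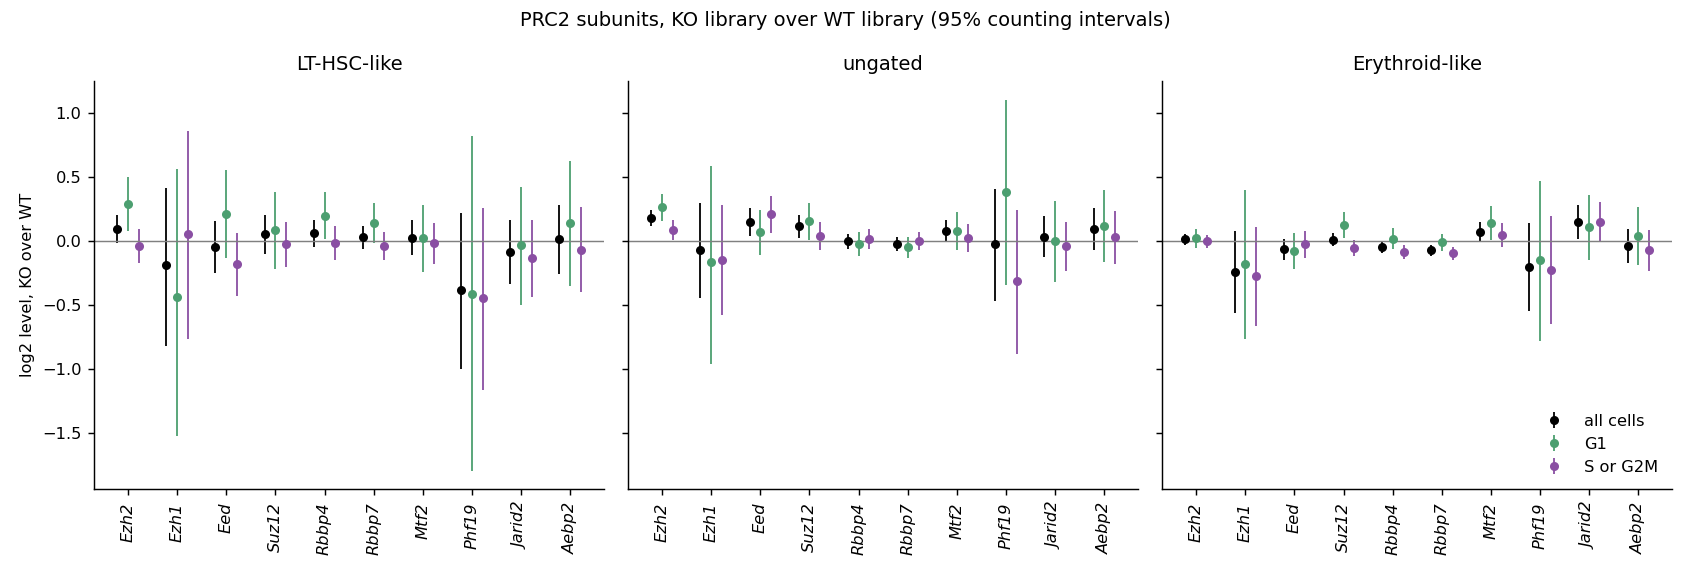
Log2 ratio of KO over WT for each subunit in LT-HSC-like, ungated and erythroid-like cells, for all cells in black, G1 cells in green and S or G2M cells in purple, with bars for 95% counting intervals. Most points lie within 0.25 of 0, Ezh2 in G1 cells stands at 0.29 and 0.26 in the first and second panels, and Ezh1 and Phf19 have the widest bars.

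Embryo sex differed between the pools, so male cells (Y-linked UMIs, no Xist) and female cells (Xist, no Y-linked UMIs) were compared within the KO library, over LT-HSC-like, erythroid-like and ungated cells, 601 male and 2317 female. The log2 ratio of male over female was 0.078 (0.015 to 0.14) for Ezh2, 0.10 (0.017 to 0.18) for Suz12, -0.12 (-0.22 to -0.015) for Mtf2 and -0.055 (-0.11 to 0.0043) for the X-linked Rbbp7. Of the 10 members only Phf19 passed 0.25, at -0.46 (-1.03 to 0.067) from 35 male and 182 female UMIs. With female cells alone in both libraries the KO/WT ratio of Phf19 in LT-HSC-like cells was -0.44 (-1.14 to 0.22). The cells of 1 sex come from an unknown number of the 3 embryos.

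Other Polycomb genes and the complexes that share Rbbp4 and Rbbp7 were read in LT-HSC-like cells in the same way, against the same 21.1% of genes past 0.25. Of 5 other PRC2 partners with enough UMIs 0 were higher in KO and 2 lower, Epop at -0.29 and Lcorl at -0.27, with both intervals including 0. Of 21 genes of PRC1, the complex that binds the PRC2 mark, 3 were higher and 3 lower. Among these were Pcgf6 at 0.32 (0.031 to 0.60) and Bmi1 at 0.29, and Cbx8 at -0.38 and Phc3 at -0.35. Neither H3K27 demethylase passed, Setd2 of the 5 H3K36 methyltransferases was lower at -0.26 (-0.49 to -0.044), and neither gene of the chromatin assembly factor CAF-1 passed. None of 10 listed PRC2 target genes reached 100 UMIs in these cells, and 8 had no UMI at all. The most captured was Wnt6, with 50 UMIs in WT and 44 in KO, at 5.66 and 7.43 CPM. Its KO/WT ratio was 0.39 (-0.22 to 1.01).

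NuRD, the deacetylase complex that also contains Rbbp4 and Rbbp7, gave 1 gene higher and 2 lower of 12. The lower ones were Chd3, a remodeller, at -0.25 and Hdac1, a histone deacetylase, which went from 126 CPM in WT to 76.7 in KO, a ratio of -0.72 (-0.88 to -0.56). Hdac1 was lower in KO in all 10 classes, from -0.38 in hepatocyte-like and -0.46 (-0.52 to -0.40) in erythroid-like cells to -0.72 in LT-HSC-like cells. Of the 60-base words in the last 500 bases of Hdac1 transcripts, 20.4% also occur in other genes, and 420 of them in Gm10093, a gene that is not counted in these libraries, so the counting of Hdac1 is uncertain. The higher one was Cdk2ap1, at 0.35, and 79.4% of its words are shared, most of them with Gm12184. Hdac1 lies on chromosome 4 at 129516104 to 129542713 (GRCm38) and Rbbp4 on the same chromosome at 129307100 to 129335370, where Rbbp4 was at 0.062.

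Among the members themselves, shared words were found in 6.80% of those of Rbbp7, all with Gm6382, which is not counted in these libraries, and in 0.0681% of those of Eed. The other 8 had none. The 3′ ends of Mtf2, Rbbp4 and Rbbp7 lie within the genes Tmed5, Sync and Txlng on the opposite strand. Whether the counting used strand is not given in the sources used here, so these levels may hold reads of the neighbours.

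Genes with the most similar pattern were sought over the 20 profiles of 10 classes in 2 libraries, by Pearson's r of log2 level among 12510 genes, as a description. For Ezh1 these were Trib1 (0.95), Appl2 (0.93), Dennd5a (0.91), Sh3bp5 (0.90) and Icam1 (0.89). For Ezh2 they were Hnrnpa2b1 (0.95), Nap1l1 (0.95), Ssb (0.94), Vbp1 (0.94) and Pnn (0.93). Between Ezh1 and Ezh2 r was -0.42. Among the other members the value with Ezh2 was highest for Mtf2 (0.70) and Suz12 (0.69) and lowest for Rbbp7 (0.17). The profiles share libraries, and small classes with few UMIs of Ezh1 weigh as much as large ones.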

How the data were processed

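Per the file headers and the submitters' processing notes, the authors aligned the reads to mm10 with Cell Ranger (version 6.0.0) and deposited a table of raw counts (UMIs by gene and barcode) for each library. The annotation release is not given in the sources used here. The cell filter was 1000 detected genes or more and a mitochondrial share of 20% or less. Scrublet (scanpy 1.11.5) called 3.47% of WT and 5.23% of KO cells doublets, which were kept. Class gates used 9 lists of 8 markers on cells thinned to 8500 UMIs. Their minimums were set after marker counts had been seen, and 53 and 92 tied and 129 and 379 shallower cells were left out. Phases were scored with Seurat 5.3.0 (R 4.3.3). Sums, exact Poisson, binomial and conditional (Clopper-Pearson) intervals of 95% were computed in Python 3.11.15 (numpy 2.4.6, scipy 1.17.1, pandas 2.3.3). The conditional intervals were checked on simulated Poisson counts. These hold no spread between cells or embryos, so the check covers the computation only. Log2 profiles for likeness used a pseudocount of 1 CPM. Positions are from GENCODE vM21 (GRCm38).

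The members and lists were chosen with earlier results of these data known. Named were all members, Nfkbia, 4 cycling gauges, up to 2 genes per direction and partner list past a log2 KO/WT of 0.25, and the 5 genes most like Ezh1 and Ezh2. Wnt6 was added as the most captured of the listed PRC2 target genes. The total counts were 109122324 UMIs in WT and 100029143 in KO. The comparisons were also made under 15 processing alternatives, and the comparisons within phases were added with the data in view.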

Additional observations from a re-analysis of the deposited data

Results flagged for a closer look

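For 4 members the log2 ratio of cycling over G1 cells pointed in opposite directions in different classes, the same way in both libraries. These differences were not tested, since each library is 1 sample.

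Ezh1 was at -0.66 in WT and -0.17 in KO in LT-HSC-like cells, at 1.11 and 1.13 in ungated cells, and at 0.11 and 0.011 in erythroid-like cells. The intervals excluded 0 only in ungated cells. Aebp2 was at 0.22 and 0.017 in LT-HSC-like cells, 0.50 and 0.41 in ungated cells, and -0.016 and -0.13 in erythroid-like cells. Its intervals included 0 in LT-HSC-like and erythroid-like cells of both libraries. Mtf2 was at 0.37 and 0.33 in LT-HSC-like cells and 0.49 and 0.43 in ungated cells, but at -0.11 and -0.20 in erythroid-like cells. In the erythroid-like cells its WT interval (-0.22 to 0.0077) included 0. Rbbp7 was at 0.19 and 0.0052 in LT-HSC-like cells and -0.11 and -0.20 in erythroid-like cells. Its KO interval in LT-HSC-like cells (-0.15 to 0.16) included 0, and in ungated cells it was at -0.031 and 0.017. The median of all genes in erythroid-like cells was -0.16 in WT and -0.19 in KO, so the values of Aebp2, Mtf2 and Rbbp7 there lay within 0.15 of it.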

How the results depend on the processing

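No paired analysis was possible because there was 1 library per genotype. The 48 results were recomputed under 15 alternatives, in 468 values, of which 409 stayed within the interval of the reported value, 58 moved outside it and 1 changed direction (counted only where the interval of the reported value excluded 0). Where a value moved, the cause was not tested unless the alternative itself fixes it.

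The ratios of LT-HSC-like over erythroid-like cells moved most. The clusters named erythroid held only 546 and 399 cells of both libraries together, against 1395 WT and 1997 KO cells by the gate. The largest cluster left without a class held 1371 cells, led by Sh2d4a and C2cd4a. Others without one included a cluster of 658 cells led by haemoglobin genes and one of 561 with Car1 among its leading genes. Classes from clusters thus compare another set of erythroid cells. With classes from clusters the ratio was 0.22 for Ezh2 in WT, 1.67 and 1.62 for Mtf2 in WT and KO and 1.52 for Jarid2 in KO. Clusters also raised Eed to 1.0 and 0.90, Aebp2 to 1.48 and 1.26 and Ezh1 to 1.79 and 1.6 and lowered Rbbp4 to 0.12 and 0.25 in WT and KO, while scaling to the median of all genes gave Eed 0.10 and 0.13, Aebp2 0.48 and 0.54, Rbbp4 0.018 and 0.14 and Rbbp7 0.20 and 0.32. The Ezh1 over Ezh2 difference in WT was 1.57 with clusters and 1.39 with 1 marker more in the gate, which gave Mtf2 1.32 in KO. Scaling to the median of all genes turned Ezh2 to -0.11 in KO and -0.21 in WT, and gave Jarid2 0.91 and 0.69 and Mtf2 0.93 and 0.90 in WT and KO. Leaving haemoglobin, mitochondrial and ribosomal protein genes out of the total gave Ezh2 0.061 in KO. Means over cells gave Jarid2 1.38 in WT and Mtf2 1.33 in both libraries.

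For cycling over G1 cells, Ezh2 in KO LT-HSC-like cells was at 0.51 with clusters and 0.57 with 1 marker more, against 0.24 as reported. The highest against the lowest of the 4 cycling bins gave Ezh2 0.80 in WT and 0.44 in KO in LT-HSC-like cells and 0.81 and 0.67 in ungated cells, and Ezh1 1.64 in WT ungated cells. Phases on 4000 UMIs gave Ezh2 0.38 in WT ungated cells. Over the alternatives Ezh1 in LT-HSC-like cells ranged from -0.91 to -0.081 in WT and from -0.39 to 0.44 in KO, so its direction in KO was not settled, and in ungated cells it ranged from 0.67 to 1.64 in WT and from 0.54 to 1.39 in KO.

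For KO against WT in LT-HSC-like cells, Ezh2 ranged from 0.046 to 0.20, Ezh1 from -0.48 to -0.055 and Phf19 from -0.44 to 0.016, so that Phf19 did not stay past 0.25. Ezh2 in G1 cells ranged from 0.11, with 1 marker more, to 0.46, with means over cells. With a minimum of 20 UMIs 3571 genes passed 0.25, against 1794 with 100. Depth limits Ezh1 and Phf19 most. The interval of KO over WT for Ezh1 in LT-HSC-like cells ran from -0.82 to 0.42, so a smaller difference could not be detected.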

Other observations

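Cells under 8500 UMIs were in no class. In these 129 WT and 379 KO cells, with medians of 5447 and 6350 UMIs, Ezh1 was at 15.8 CPM (7.87 to 28.2) in WT and 9.61 (6.03 to 14.6) in KO, and Ezh2 at 142 and 154.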
